A study of Mus musculus with 15 samples.

Results

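Trp53 encodes p53, a transcription factor that is held at a low level in unstressed cells and is stabilised by damaged DNA and by the stress of long-term culture. It then switches on genes that stop the cell cycle, repair DNA or kill the cell, and it also switches on its own inhibitor, Mdm2, which marks p53 for destruction and so closes a feedback loop. Mouse embryonic fibroblasts slow down after a limited number of passages, and cells that overcome this barrier are known often to have lost either p53 or Cdkn2a, whose product ARF protects p53 from Mdm2. Since p53 is controlled mainly as a protein, the RNA of its target genes is commonly used as a readout of its activity, although each target also has other regulators. Here 10 genes are described by name: Trp53 and 9 of its direct targets, namely Mdm2 and Ccng1 (feedback on p53), Cdkn1a (cell-cycle arrest), Bax, Phlda3 and Perp (cell death and survival), and Zmat3, Trp53inp1 and Sesn2 (RNA binding and stress responses). They were found by gene symbol among 47222 symbols and 65522 transcription units of a whole-transcriptome RNA-seq table, in which they take up 19 units.

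RNA was sequenced from fibroblasts of individual mouse embryos, all female, either as primary cells before passage 5 or as the culture-adapted line that later grew out of the same population. There were 3 WT populations (E13.1, E13.8, E14.4) and 3 CIZ1 null populations (E13.15, E13.17, E14.2), each sequenced once in the primary and once in the adapted state, and the values of a group are listed in this order of embryos below. CIZ1 null cells have a gene trap in Ciz1 and so lack this nuclear matrix protein. E13.17 was also transgenic for GFP-CIZ1 under a doxycycline-inducible system; the labels say so of its primary sample and the study's list of cells also of its adapted line, and neither had received doxycycline. Another untreated transgenic CIZ1 null sample (S13) and 2 primary transgenic CIZ1 null samples given doxycycline at 5 to 10 µg per ml (S14 and S15) are outside the main groups and are used only where they are named. By elimination S13 would be E14.19, the other transgenic population of the paper, which lists it at an earlier passage than the other primary populations. Adapted lines arose when surviving colonies were pooled and replated, so a line is not a clone. Levels are in FPKM, which corrects for the length of a transcript and the size of a library, so that levels of different genes can be compared.

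Except for Trp53, each of the 10 genes is listed as a pair of units at the same locus. The unit with the higher mean was used for each gene, and the other is given by count. The second unit held between 2.46% (Bax) and 48.7% (Perp) of a gene's FPKM, and followed the first across the 15 samples with r of 0.907 to 0.998, as a description. The Trp53 unit (chromosome 11, 69554092 to 69591873 in GRCm38) shares its locus with Efnb3 and Wrap53, the Phlda3 unit with Csrp1 and the Sesn2 unit with Gm12981, so fragments could have been split between these genes. The whole-transcriptome facts that bear on the genes are few. Ciz1 was between 18.7 and 25.0 FPKM in the 6 WT samples and between 0.0546 and 0.724 in the 6 CIZ1 null ones, as labelled. The depth of the libraries, relative to primary WT E14.4, was 1 to 1.62 in the 6 primary samples and 0.54 to 1.18 in the 6 adapted ones. All 9 fibroblast markers were present, but their summed level was 11637 to 13367 FPKM in primary and 2438 to 7591 in adapted samples. Over both genotypes 4 of the 9 were called lower, beside 19.1% of all units tested. In WT cells 0 of the 9 were called lower, beside 6.68%, and in CIZ1 null cells 3, beside 3.47%. Markers of white blood cells summed to 2.99 to 15.9 FPKM in primary and 1.79 to 4.19 in adapted samples, those of skeletal muscle to 6.14 to 13.6 and at most 0.687 with Myod1 and Myf5 at 0, and those of epithelium to at most 11.6 and 0.413. In bulk RNA, fewer cells that express a gene cannot be told apart from less of its RNA in each cell, and the part of these markers in the results was not tested.

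The start regions of the genes show where p53 could bind near a promoter. RefSeq windows of 250 bases before to 50 after the transcription start (GRCm38.p6) were at hand for 7 of the 10 genes. They were searched for the p53 consensus decamer, the sequence bound by a pair of p53 molecules, which reads the same on both strands. The decamer was in at least 1 window of 5 of these genes, and in 8.36% of all 32851 windows of the genome, so a single match is common. Only a start of Cdkn1a had 2 decamers no more than 13 bases apart, which 24 windows (0.0731%) had. That stretch, which ends at the base before the start, and the match in each of the other 4 genes are printed to show these letters, 5′ to 3′ on the strand of the gene with the decamer in capitals.
Cdkn1a, chr17:29090849-29090978, plus strand: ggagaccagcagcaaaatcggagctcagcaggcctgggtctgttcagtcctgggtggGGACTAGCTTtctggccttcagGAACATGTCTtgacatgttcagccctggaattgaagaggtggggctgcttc
Mdm2, chr10:117710925-117710954, minus strand: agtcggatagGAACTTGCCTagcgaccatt
Ccng1, chr11:40755452-40755481, minus strand: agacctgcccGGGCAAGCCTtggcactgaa
Bax, chr7:45467080-45467109, minus strand: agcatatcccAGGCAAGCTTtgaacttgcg
Trp53, chr11:69580274-69580303, plus strand: acccacggaaGGACTTGCCCttacttgtta
In Cdkn1a the decamers begin 73 and 51 bases before the start, with 12 bases between them. Only exact decamers were marked, so a near match, such as tgacatgttc right after GAACATGTCT, stays in lower case and was not counted. A match is a description of letters, and p53 binding was not measured.

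Trp53 itself was abundant in every sample and varied little. In primary WT cells it was at 82.1, 87.4 and 83.9 FPKM, a mean of 84.5 ± 2.71 (SD, n = 3), and in primary CIZ1 null cells at 87.9, 95.7 and 91.9, a mean of 91.8 ± 3.90 (n = 3). The adapted WT lines had 53.9, 62.9 and 71.1, a mean of 62.6 ± 8.62 (n = 3), and the adapted CIZ1 null lines 84.9, 72.3 and 88.5, a mean of 81.9 ± 8.53 (n = 3). The transcript was present in every line, and the lowest adapted line was 1.17 times below the next. Each adapted line was below its own primary parent, by 0.05 to 0.60 on the log2 scale of FPKM + 1. The size of this fall depended on the scaling of the samples. With quantile normalization the WT change by limma was -0.15 in place of -0.43. The CIZ1 null change was then 0.080 in place of -0.17. Over both genotypes together Trp53 did not pass the test, with a log2 change of -0.30 (standard error 0.109, 95% interval -0.54 to -0.06, adjusted p = 0.0518 by limma, Benjamini-Hochberg over all units tested, called under 0.05). Over 22 alternatives this change ran from -0.34 to -0.036, and it was called in 7 of them. Among the adapted lines all 3 WT values lay below all 3 CIZ1 null values, but this difference did not pass the test (log2 change 0.39, 95% interval -0.14 to 0.91, adjusted p = 0.998).

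**Figure D1:**
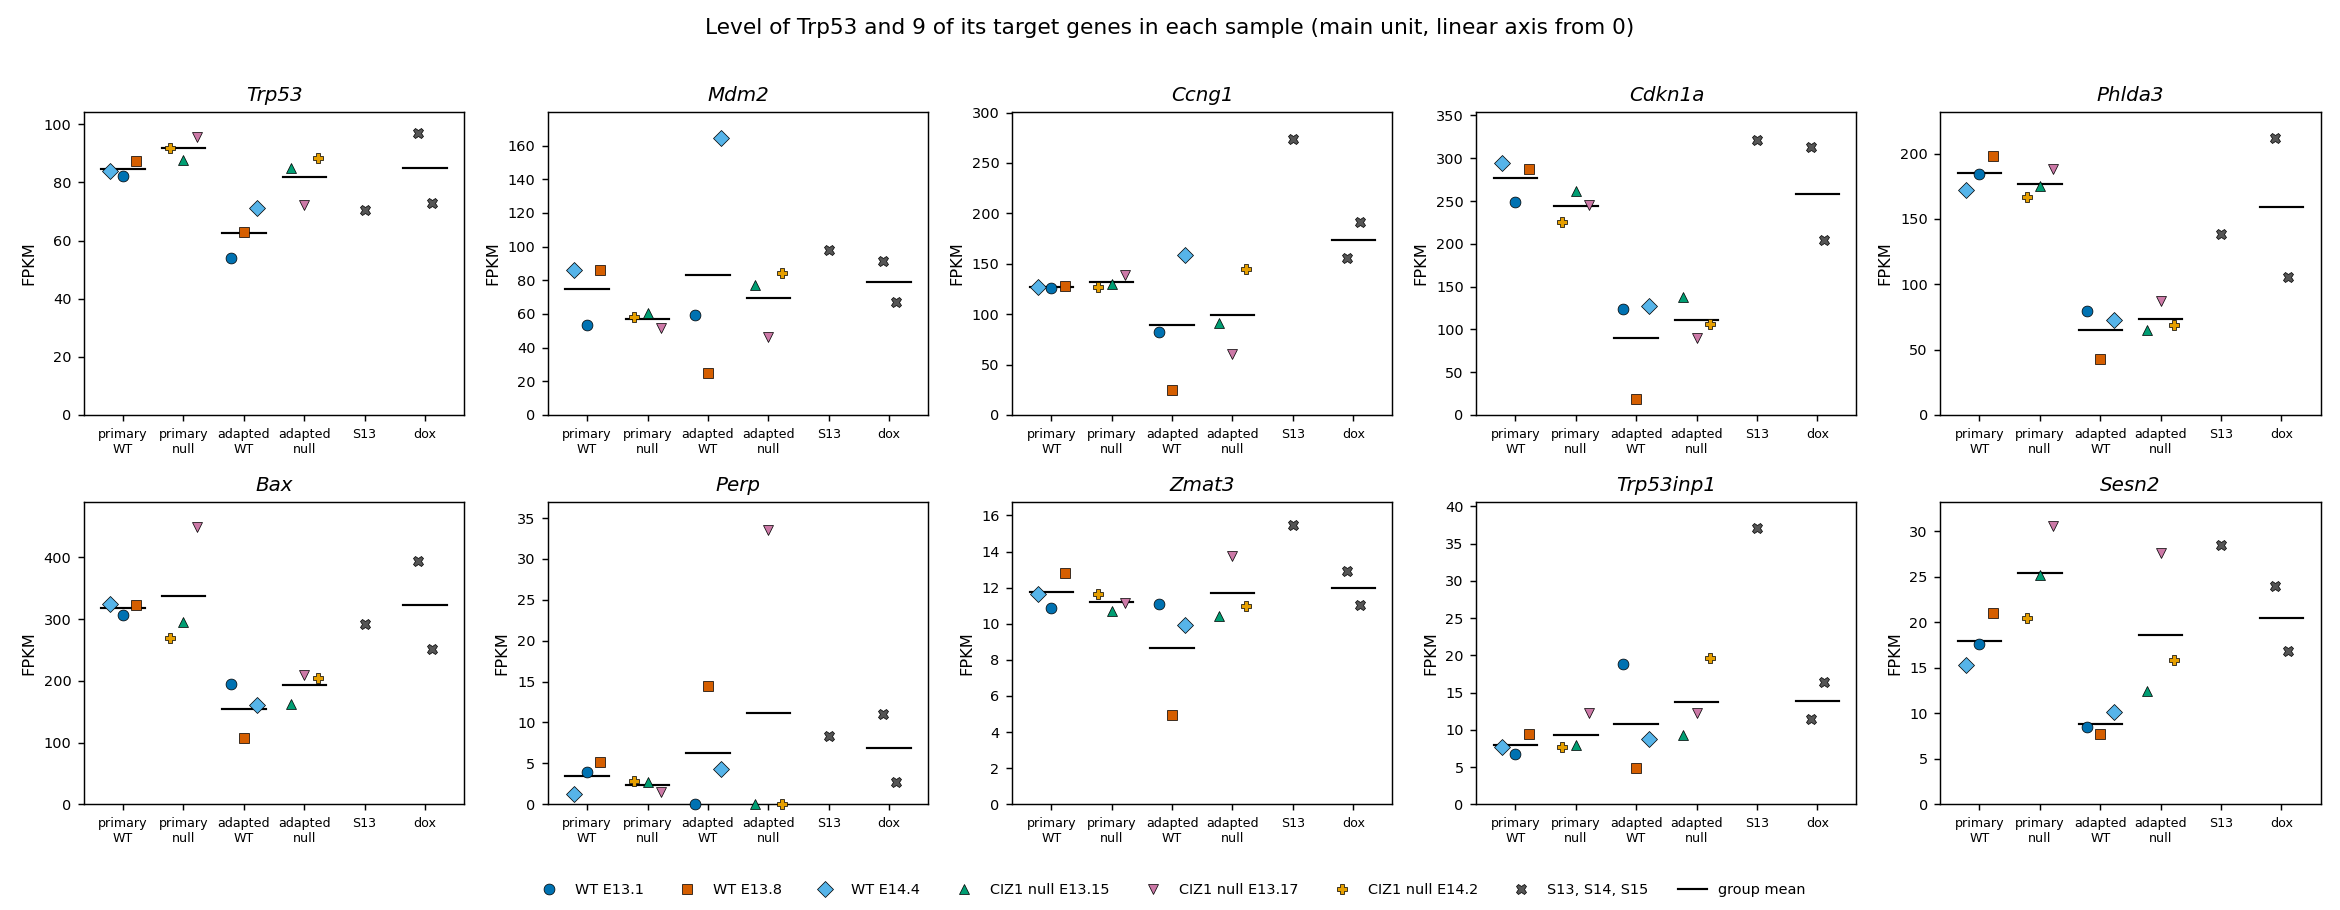
FPKM of Trp53 and its 9 targets (vertical axes, linear from 0) in each of the 15 samples, with 1 symbol per embryo, crosses for S13, S14 and S15, and a line at the mean of each group of 2 or more. The adapted WT line E13.8 is the lowest adapted line in 8 of the 9 targets, and Ccng1 spans 1.10 times over the 6 primary samples but 6.32 times over the 6 adapted lines.

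Cdkn1a, which encodes the cell-cycle inhibitor p21, had the second highest mean of the 10 genes in primary cells, after Bax. Primary WT cells had 249, 288 and 294 FPKM, and primary CIZ1 null cells 262, 245 and 225. Adapted WT lines had 124, 18.1 and 127, and adapted CIZ1 null lines 138, 90.1 and 107. All 6 adapted lines were below all 6 primary samples, and WT E13.8 stood apart from the other 5, being 4.98 times below the next lowest. Over both genotypes Cdkn1a fell by 1.59 on the log2 scale (standard error 0.415, adjusted p = 0.0126, limma), and in CIZ1 null cells alone it fell by 1.14 (standard error 0.208, adjusted p = 0.0377). In WT cells alone the change of -2.04 did not pass (standard error 0.726, adjusted p = 0.117), but it did with array weights (-2.63, adjusted p = 0.0344) and with all 12 samples in a single fit (adjusted p = 0.0438). Without adapted WT E13.8 it also passed, at -1.13 (adjusted p = 0.0274), and the fall over both genotypes was then 1.14 (adjusted p = 0.00026).

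Phlda3, which restrains the survival kinase AKT, and Bax, which opens the outer mitochondrial membrane in cell death, were also lower in adapted cells. Phlda3 was at 184, 199 and 172 FPKM in WT and 175, 188 and 167 in CIZ1 null primary cells, and at 79.7, 42.9 and 72.6 in WT and 64.8, 86.9 and 69.2 in CIZ1 null adapted lines. Its adapted and primary values do not overlap in either genotype, and it was the only 1 of the 10 genes called in both genotypes separately. Phlda3 fell by 1.54 in WT cells (standard error 0.256, adjusted p = 0.0225), by 1.26 with CIZ1 absent (standard error 0.182, adjusted p = 0.0262) and by 1.4 over both genotypes (standard error 0.157, adjusted p = 0.00016, limma in each case). Bax was at 307, 323 and 325 FPKM in WT and 296, 449.8 and 269 in CIZ1 null primary cells, and at 196, 107 and 162 in WT and 163, 209.6 and 205 in CIZ1 null adapted lines. Here too no adapted line reached the lowest primary sample. Bax fell by 1.08 in WT cells (standard error 0.237, adjusted p = 0.0420) and by 0.93 over both genotypes (standard error 0.174, adjusted p = 0.0023), whereas the change in CIZ1 null cells alone, -0.78, did not pass (adjusted p = 0.105).

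Sesn2, a stress-induced protein that restrains the growth kinase mTORC1, was at 17.7, 21.0 and 15.3 FPKM in primary WT cells and at 8.54, 7.77 and 10.1 in adapted WT lines. In CIZ1 null cells it was at 25.2, 30.5 and 20.5 in the primary and 12.5, 27.6 and 15.9 in the adapted state. The WT groups are separate, but adapted CIZ1 null E13.17 lies inside the range of the primary CIZ1 null samples. Sesn2 fell by 0.95 in WT cells (standard error 0.190, adjusted p = 0.0343) and by 0.72 over both genotypes (standard error 0.195, adjusted p = 0.0155). In CIZ1 null cells the change was -0.48 (adjusted p = 0.351). Without adapted WT E13.8 the WT change was -0.87 and was not called (adjusted p = 0.0669). Quantile normalization took the fall over both genotypes to 0.59 with an adjusted p of 0.0518, and the second unit of Sesn2 was not called there (log2 change -0.32, adjusted p = 0.209).

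Mdm2 and Ccng1, the feedback genes, differed widely between adapted lines and had no called change. Mdm2 was at 53.2, 85.9 and 85.9 FPKM in primary WT and at 60.6, 51.8 and 58.3 in primary CIZ1 null cells. Adapted WT lines had 59.2, 25.1 and 164, and adapted CIZ1 null lines 77.2, 46.5 and 84.4. The lowest and the highest Mdm2 of all 15 samples are therefore both in adapted WT lines, E13.8 and E14.4, and the log2 change over both genotypes was 0.01 (95% interval -0.79 to 0.81, adjusted p = 0.986). Ccng1, a cyclin that works with a phosphatase acting on Mdm2, was at 126, 128 and 127 FPKM in primary WT and 130, 139 and 127 in primary CIZ1 null cells. Adapted WT lines had 82.5, 25.2 and 159, and adapted CIZ1 null lines 91.2, 60.2 and 145. The highest of these 6 was 6.32 times the lowest, against 1.10 times in the primary samples, and adapted WT E14.4 and CIZ1 null E14.2 were above the 6 primary samples. The ratio of an adapted line to its primary parent put the 6 embryos in the same order for both genes, from WT E13.8 (log2 ratio -1.74 for Mdm2 and -2.31 for Ccng1) to WT E14.4 (0.93 and 0.32). Over both genotypes the change of Ccng1, -0.68, did not pass (95% interval -1.48 to 0.11, adjusted p = 0.168).

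Zmat3, Trp53inp1 and Perp had lower levels, and none of them was called in any of the 7 comparisons. Zmat3, an RNA-binding protein, was at 10.7 to 12.8 FPKM in all 6 primary samples and at 9.93 to 13.8 in 5 adapted lines, but at 4.93 in adapted WT E13.8. Trp53inp1, which promotes the activating modification of p53 and autophagy, was at 6.76, 9.40 and 7.70 FPKM in WT and 7.98, 12.2 and 7.69 in CIZ1 null primary cells. In adapted lines it was at 18.9, 4.87 and 8.72 in WT and at 9.34, 12.2 and 19.6 in CIZ1 null cells. The groups overlap, with the lowest and the 2 highest values in adapted lines, and the log2 change over both genotypes was 0.36 (95% interval -0.25 to 0.96, adjusted p = 0.345). Perp, a membrane protein of cell junctions linked to p53-dependent death, was at 1.30 to 5.22 FPKM in primary samples. It was listed at 0 in adapted WT E13.1 and CIZ1 null E13.15 and at 0.0864 in CIZ1 null E14.2, but at 4.26 in WT E14.4, 14.5 in WT E13.8 and 33.6 in CIZ1 null E13.17. Perp was thus the only 1 of the 9 targets for which adapted WT E13.8 was above its primary parent.

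As a group, the 10 genes had a median log2 change of -0.67 in WT cells, -0.33 in CIZ1 null cells and -0.49 over both genotypes, where all units tested had medians of -0.05, -0.04 and -0.05. In WT cells 3 of the 10 (Phlda3, Bax, Sesn2) were called lower and 0 higher, beside 6.68% of 19919 units called lower and 2.87% higher. In CIZ1 null cells 2 (Phlda3, Cdkn1a) were called lower and 0 higher, beside 3.47% of 20044 units called lower and 1.4% higher. Over both genotypes 4 (Phlda3, Bax, Cdkn1a, Sesn2) were called lower and 0 higher, beside 19.1% of 20046 units called lower and 14.1% higher. These shares of the 10 genes lie above those of all units, in a transcriptome of which a large part moved, and no test set the 10 genes against the rest. The 10 genes were also chosen with earlier results of these data known, which limits what a higher share can show. Of the 10 genes, 5 in WT cells, 3 in CIZ1 null cells and 3 over both genotypes had all adapted values below all primary ones, beside 21.4%, 19.6% and 10.2% of all units. When all 19 units are counted, 5, 4 and 7 were called lower. The calls within a genotype rested on 3 samples against 3. With the embryo of origin as a replicate block, 0 of the 10 genes were called in WT cells (adjusted p = 0.0569 for Phlda3, 0.0749 for Bax and 0.0865 for Sesn2, limma) or in CIZ1 null cells (0.0818 for Phlda3 and 0.0957 for Cdkn1a). Without any 1 of the primary WT samples 0 of the 3 WT calls were left, and without any 1 of the primary CIZ1 null samples, or without adapted CIZ1 null E14.2, 0 of the 2 CIZ1 null calls. Calls among all units depended on the setting as well. Over the 14 alternatives in WT cells the share of all units called ran from 0.312% to 14.95%, beside 9.55% in the main fit. In CIZ1 null cells it ran from 0.0499% to 14.96% over 16 alternatives, beside 4.86%. Over both genotypes the same 4 genes were called with the block, and also without adapted CIZ1 null E13.17 and E14.2, a choice made after seeing the data.

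**Figure D2:**
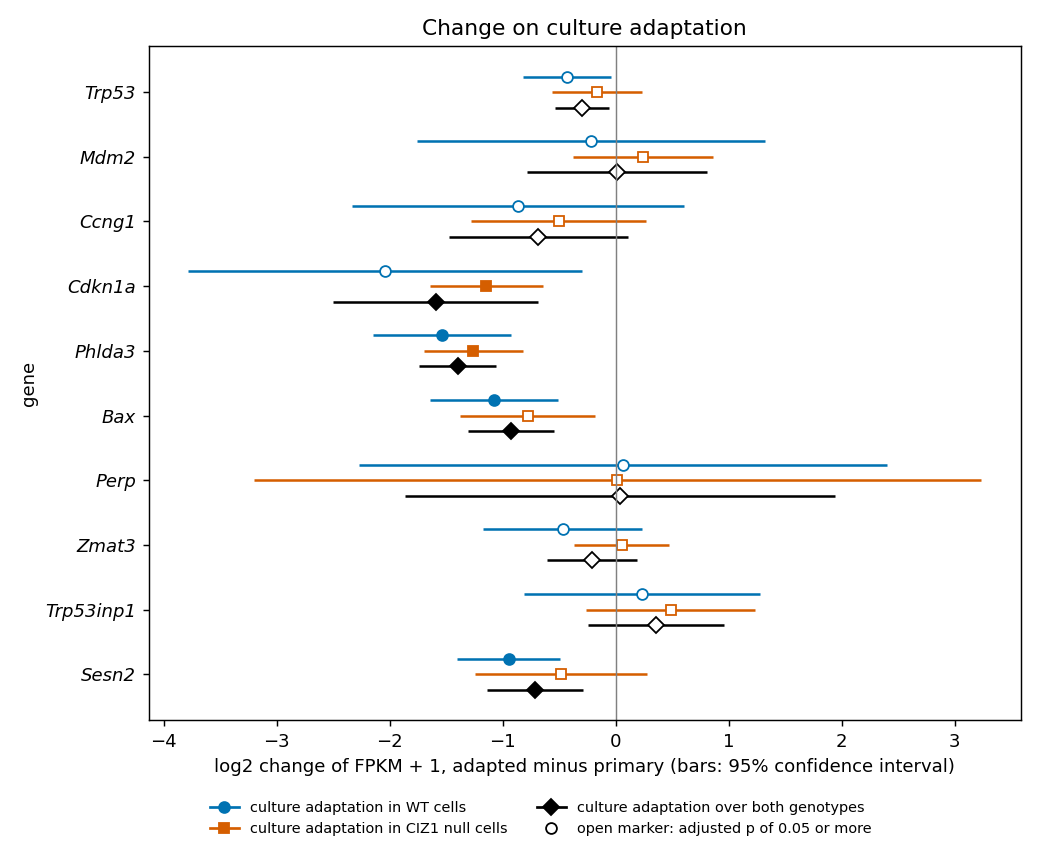
Log2 change of FPKM + 1 (horizontal axis, adapted minus primary) of the 10 genes in WT cells, in CIZ1 null cells and over both genotypes, with 95% confidence intervals from limma and filled symbols for an adjusted p under 0.05. Phlda3 is filled in all 3 comparisons, Cdkn1a, Bax and Sesn2 in 2 each, and the intervals of Mdm2, Ccng1, Zmat3, Trp53inp1 and Perp include 0 in all 3.

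The size of the change differed from line to line, and adapted WT E13.8 stood apart. This line was the lowest of the 6 adapted lines for Mdm2, Cdkn1a, Ccng1, Bax, Zmat3, Phlda3, Trp53inp1 and Sesn2, which makes 8 of the 9 targets (88.9%), whereas it was the lowest for 15.3% of all units tested. Among 30 other known p53 targets it was the lowest for 13 (43.3%). It was not the highest line for any of these 9 or 30 genes, and it was the highest for 15.02% of all units. Against its own primary parent, Cdkn1a fell by 3.92 on the log2 scale of FPKM + 1 in E13.8, Ccng1 fell by 2.31, Phlda3 fell by 2.19, Mdm2 fell by 1.74, Bax fell by 1.58 and Sesn2 fell by 1.33. In the other 5 lines the same ratio of Cdkn1a lay between -1.43 and -0.92. Adapted CIZ1 null E13.17 was the highest line for 5 of the 9 targets (55.6%), namely Bax, Zmat3, Phlda3, Sesn2 and Perp, beside 17.7% of all units. Yet it was next to the lowest for Mdm2, Cdkn1a and Ccng1, and the lowest for 7 of the 30 other targets. Trp53 was not lowest in E13.8, at 62.9 FPKM. The depth of this library, 0.754 relative to primary WT E14.4, lies inside the range of the adapted libraries. These are values of a single library per line with no test, and neither the sequence nor the protein of p53 was measured.

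**Figure D3:**
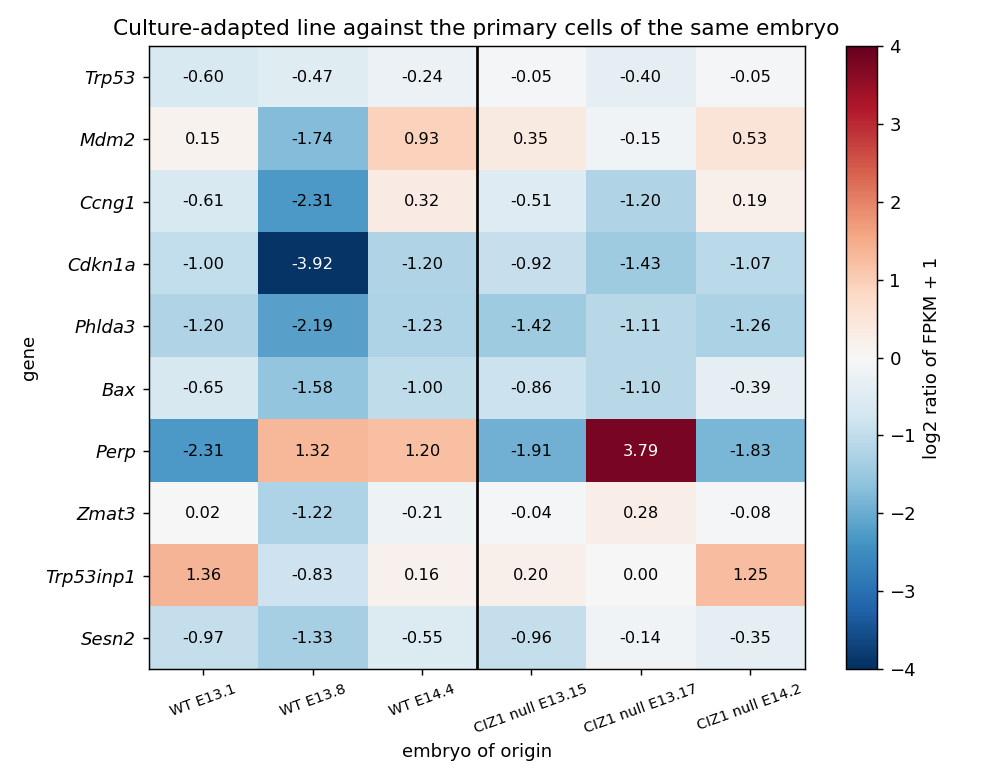
Log2 ratio of FPKM + 1 of each adapted line over the primary cells of the same embryo (columns, WT left of the line and CIZ1 null right of it) for the 10 genes (rows), with blue for lower and red for higher in the adapted line. Cdkn1a, Phlda3, Bax, Sesn2 and Trp53 are below 0 in all 6 embryos, and the column of E13.8 is the most negative for 8 of the 9 targets.

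All 10 genes varied more between the 6 adapted lines than between the 6 primary samples, as did the median of all units. The standard deviation of log2(FPKM + 1) over the 6 primary samples was 0.053 for Ccng1, 0.081 for Trp53, 0.085 for Zmat3, 0.093 for Phlda3 and 0.146 for Cdkn1a, below the median of 0.231 over all units tested. It was above that median for the other 5, at 0.252 for Bax, 0.271 for Trp53inp1, 0.326 for Mdm2, 0.339 for Sesn2 and 0.555 for Perp. Over the 6 adapted lines it was 0.263 for Trp53, 0.35 for Phlda3 and 0.360 for Bax, below the median of 0.401, and between 0.449 (Zmat3) and 2.24 (Perp) for the other 7, with 1.09 for Cdkn1a, 0.954 for Ccng1 and 0.894 for Mdm2. The primary sample S13, which is not among these 6 and had a relative depth of 0.48, lay outside their range for 8 of the 10 genes. It was below them for Trp53 and Phlda3 and above them for Mdm2, Cdkn1a, Ccng1, Zmat3, Trp53inp1 and Perp. Relative depth was lower in most adapted libraries, and its part in this spread was not tested.

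The regulators of p53 differed between the lines as well. Cdkn2a was at 114, 104 and 95.7 FPKM in WT and 82.2, 176 and 113 in CIZ1 null primary cells. Adapted WT lines had 14.2, 273 and 39.9, and adapted CIZ1 null lines 66.1, 0 and 171. It was thus highest in WT E13.8, the lowest adapted line for 8 of the 9 targets and for 13 of 30 other p53 targets. In CIZ1 null E13.17, whose primary parent had the highest level of the primary samples, all 3 Cdkn2a units were listed at 0. Cdkn2a was not called (log2 change over both genotypes -1.66, 95% interval -4.07 to 0.75, adjusted p = 0.269), and its units do not separate ARF from INK4A, the other product of this gene. Mdm4, a relative of Mdm2 that blocks the activation domain of p53, was at 5.12 to 8.66 FPKM in the 6 primary samples. All 6 adapted lines were above them, at 47.0, 13.97 and 12.96 in WT and 19.2, 14.7 and 15.9 in CIZ1 null lines. Mdm4 rose by 1.22 on the log2 scale over both genotypes (standard error 0.280, adjusted p = 0.0066, limma). In CIZ1 null cells alone it rose by 0.96 (adjusted p = 0.0449, and 0.102 with the embryo as a block). The highest Mdm2 was in adapted WT E14.4, the highest Mdm4 in WT E13.1 and the highest Cdkn2a in WT E13.8, and the lowest Cdkn2a in CIZ1 null E13.17.

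**Figure D4:**
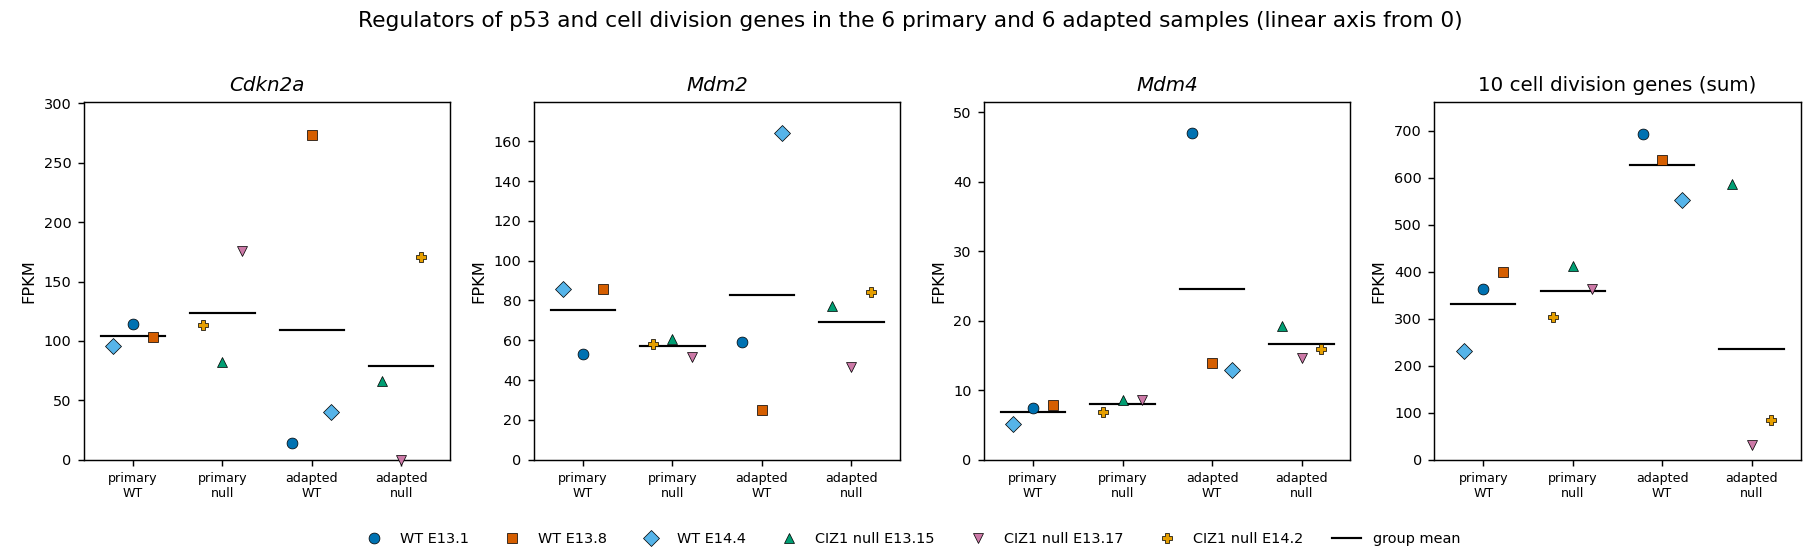
FPKM (vertical axes, linear from 0) of Cdkn2a, Mdm2, Mdm4 and the sum of 10 cell division genes in the 6 primary and 6 adapted samples, with 1 symbol per embryo and a line at each group mean. Mdm4 is higher in all 6 adapted lines, while Cdkn2a runs from 0 in CIZ1 null E13.17 to 273 in WT E13.8, and the cell division sum is 31.8 and 85.2 in CIZ1 null E13.17 and E14.2.

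Of 19 regulators of p53 measured, Cdkn2a and Mdm4 included, 9 were called higher and 1 lower over both genotypes, beside 14.1% and 19.1% of all units, with a median change of 0.33. Ep300, an acetyltransferase that serves p53 as a coactivator, rose from 5.35 to 8.79 FPKM in primary to 18.1 to 22.8 in adapted samples (log2 change 1.46, adjusted p = 5.1e-05, limma). Sirt1, a deacetylase that acts on p53, rose by 1.03 (adjusted p = 0.0022). Rpl11, a ribosomal protein that can bind and inhibit Mdm2, was at 1020.5 to 1446 FPKM in primary and 497 to 595 in adapted samples and was the one called lower (log2 change -1.04, adjusted p = 0.00011). The p53 relatives were at or near 0: Trp63 was listed at 0 in all 6 primary samples and in its main unit reached 2.58 FPKM in adapted WT E13.8, and Trp73 did not exceed 0.0769 in any sample.

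Of 31 other p53 targets, 30 passed the filter on low values, and over both genotypes 7 were called lower and 2 higher, beside 19.1% and 14.1% of all units, with a median change of -0.41. The share called lower is near that of all units. In WT cells 3 were called lower and 1 higher, beside 6.68% and 2.87%, and in CIZ1 null cells none was called, although 10 had an unadjusted p under 0.05 beside 29.3% of all units. Aen, a nuclease induced in cell death, was lowest in the same line as Cdkn1a, with 43.4 to 50.6 FPKM in primary samples, 12.8 in adapted WT E13.8 and 21.5 to 29.0 in the other 5 adapted lines (log2 change over both genotypes -1.0, adjusted p = 0.0013, limma). Gdf15, a secreted stress cytokine, fell by 1.71 (adjusted p = 0.00044), and Bbc3, which encodes the death protein PUMA, fell by 1.51 (adjusted p = 0.0031). Plk3, a stress-response kinase, fell by 1.76 (adjusted p = 0.0083). Fas, a death receptor, went the other way and was 1 of the 2 called higher. It was at 3.39 to 8.96 FPKM in primary and at 11.7 to 31.2 in adapted samples, and rose by 1.19 (adjusted p = 0.0053). Ckap2, a spindle protein, rose by 1.28 in WT cells (adjusted p = 0.0408, and 0.0787 with the embryo as a block) and was at 2.43 and 8.52 FPKM in adapted CIZ1 null E13.17 and E14.2.

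Cell division genes were higher in some adapted lines and lower in others. The sum of 10 of them was 232 to 411 FPKM in primary samples, 553 to 692 in the 3 adapted WT lines and 586 in adapted CIZ1 null E13.15, but 31.8 in adapted CIZ1 null E13.17 and 85.2 in E14.2. In WT cells 3 of the 10 were called higher, beside 2.87% of all units: Cdk1, the kinase of mitosis (log2 change 1.26, adjusted p = 0.0193), Bub1, of the spindle checkpoint (1.34, adjusted p = 0.0269), and Cdc25c, the phosphatase that activates Cdk1 (1.24, adjusted p = 0.0303, limma). Without any 1 of the primary WT samples none of these 3 was called. Over the 14 alternatives in WT cells the share of all units called ran from 0.312% to 14.95%. None of the 10 was called in CIZ1 null cells, where 1 had an unadjusted p under 0.05, beside 29.3% of all units. The part of cell division in the change of the p53 targets was not tested.

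Loss of CIZ1 was compared within primary and within adapted cells, to ask whether the p53 pathway differs with genotype. In primary cells 0 of the 10 genes were called by limma, beside 0.00511% of 19566 units, which is Ciz1 itself. With Cuffdiff the paper reports more CIZ1-dependent units, in primary and in adapted cells. A fit that calls only Ciz1 cannot show that other genes did not respond. At an unadjusted p under 0.05 in primary cells there was 1 of the 10, Sesn2, beside 6.26% of all units. Its level was higher in CIZ1 null cells by 0.47 on the log2 scale (95% interval 0.03 to 0.91, adjusted p = 0.777). The intervals of Trp53 (-0.12 to 0.35), Cdkn1a (-0.46 to 0.09), Phlda3 (-0.32 to 0.19) and Ccng1 (-0.17 to 0.28) all lay within 0.5 of 0. With 1 sample left out, the difference ran from -0.59 to -0.25 for Mdm2 and from -0.74 to -0.024 for Perp, and neither was called. Of the 10 genes Trp53 alone had all 3 CIZ1 null values above all 3 WT values, beside 6.13% of units. S13, a further untreated primary CIZ1 null sample outside this comparison, had less Trp53 (70.5 FPKM) than any primary WT sample. The part of its earlier passage was not tested. With S13 added, the difference was 0.025 for Trp53 in place of 0.12, 0.32 for Ccng1 in place of 0.055 and 0.66 for Trp53inp1 in place of 0.18, and again 0 of the 10 genes were called. In adapted cells 0 of the 10 were called, beside 0.00501% of 19976 units, which is again Ciz1. Of the 10, 1 (Sesn2) had an unadjusted p under 0.05, beside 4.02%. There 9 of the 10 had a higher mean in CIZ1 null lines, with a median difference of 0.40 beside 0.03 for all units. This rested on 1 line: without adapted WT E13.8, 6 of the 10 had a higher mean, the median was 0.065, and the differences of Mdm2 (-0.55), Ccng1 (-0.30), Cdkn1a (-0.19) and Phlda3 (-0.058) were below 0. With it, the difference in Cdkn1a was 0.72 (95% interval -1.07 to 2.5, adjusted p = 0.998). Sesn2 was higher by 0.93 (95% interval 0.16 to 1.71, adjusted p = 0.998), and it and Trp53 were the 2 genes with every CIZ1 null line above every WT line, beside 4.55% of units. The same adapted lines also differed in cell division genes. The sum of 10 such genes was 31.8 FPKM in CIZ1 null E13.17 and 85.2 in E14.2. In CIZ1 null E13.15 it was 586, inside the WT range of 553 to 692. All 10 cell division genes had a lower mean in CIZ1 null lines (median -2.38), and 0 were called. At an unadjusted p under 0.05 by limma there were 6, beside 4.02% of all units. The part of cell division in this comparison was not tested.

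The effect of adaptation was also compared between the genotypes. For 0 of the 10 genes was the difference called, beside 0% of 20046 units, and 0 of the 10 had an unadjusted p under 0.05, beside 4.63% (928 units). The change of Cdkn1a was higher in CIZ1 null cells by 0.90 (95% interval -0.92 to 2.72, adjusted p = 0.996) but by -0.014 without adapted WT E13.8, and that of Phlda3 by 0.28 (95% interval -0.42 to 0.98). The interval of Cdkn1a includes differences as large as its change in CIZ1 null cells.

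GFP-CIZ1 was induced in 2 primary CIZ1 null samples, which were compared with the 2 untreated transgenic samples. By the paper, treated and untreated samples came from the same pair of populations, E13.17 and E14.19, but the labels do not say which treated sample came from which. The fit is therefore unpaired, its error includes the difference between the populations, and its wide intervals cannot show that a gene did not respond. By limma 0 of the 10 genes were called, beside 0.0101% of 19768 units, and 0 had an unadjusted p under 0.05, beside 1.76%. Ciz1 itself was at 0.171 and 0.514 FPKM in untreated E13.17 and S13 and at 296 and 191 in S14 and S15. The untreated samples were themselves apart for several genes: Ccng1 was at 139 in E13.17 and 274 in S13, Trp53inp1 at 12.2 and 37.1, and Mdm2 at 51.8 and 97.9. In the doxycycline-treated S14 and S15 these were 155 and 192 for Ccng1, 11.4 and 16.4 for Trp53inp1 and 91.6 and 66.9 for Mdm2. S13 thus had the highest Ccng1 and Trp53inp1 of all 15 samples, and its library was the shallowest, at 0.48 relative to primary WT E14.4. Trp53 was at 95.7 and 70.5 without and at 97.04 and 72.8 with doxycycline, a log2 change of 0.03 (95% interval -0.74 to 0.80). Of the 10 genes Sesn2 alone had separate groups, at 30.5 and 28.5 without and 23.99 and 16.9 with doxycycline (log2 change -0.53, 95% interval -1.29 to 0.23), beside 10.8% of units that were lower without overlap.

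The genes most like Trp53, Mdm2 and Cdkn1a in their pattern over the 15 samples are given as a description, from 11668 units with a symbol and a mean of at least 5 FPKM. The measure is Pearson's r of log2(FPKM + 1). These samples are not independent of one another, since some share an embryo or a culture state, and their depth differs. The closest to Trp53 were Irf2bp2 (0.901), 1500011K16Rik (0.885) and Serpinf1 (0.879). The closest to Mdm2 were Myof (0.832), St3gal1 (0.799) and Cops7a (0.799). The closest to Cdkn1a were Aen (0.924), Trim25 (0.916) and Rap2a (0.907), and among the 9 targets Phlda3 and Bax followed it with 0.871 and 0.870, Ccng1 with 0.849 and Mdm2 with 0.562. Trp53 and its targets had r between -0.213 (Trp53inp1) and 0.641 (Bax), with 0.630 for Phlda3, 0.622 for Sesn2, 0.549 for Cdkn1a and 0.219 for Mdm2.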

How the data were processed

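The authors trimmed poly(A)-selected paired-end reads (cutadapt 1.8.3), aligned them to GRCm38 (HISAT2 2.0.5), assembled transcripts with Cufflinks and deposited an FPKM value per transcription unit and sample from Cuffnorm. The authors' Cuffdiff comparisons (mean levels, fold changes, p-values) were also deposited and were not used. FPKM are not counts, and absolute depth is unknown; relative depth came from the size of single-fragment steps under 0.3 FPKM.

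Groups were taken from the labels. For 12 samples the embryo was found by matching the deposited values to the per-line tables of the paper, which place untreated transgenic E13.17 in the primary CIZ1 null group. Groups were compared with limma 3.58.1 (R 4.3.3) on log2(FPKM + 1), with a variance trend, on units with a mean of at least 1 FPKM over the samples in the fit, and with Benjamini-Hochberg adjustment over all of them; a unit was called under 0.05. Adaptation over both genotypes had genotype as a term. A pseudocount understates changes of low genes. The fit was tested on simulated data. Primary and adapted samples pair by embryo: deviations from group means correlated by 0.211 (E14.4), 0.146 (E13.1), -0.01 (E13.8), -0.021 (E14.2), 0.111 (E13.15) and 0.0887 (E13.17) across units. The members and gene lists were chosen with earlier results of these data known. Named are the 10 genes, Cdkn2a, Mdm4, Trp63, Trp73 and, of the other lists, the 12 called genes with the largest change. Python 3.11.15, NumPy 2.4.6, pandas 2.3.3 and Matplotlib 3.10.9 were used.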

Additional observations from a re-analysis of the deposited data

How the results depend on the processing

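The 9 called changes of the 10 genes kept their direction in all 162 values under alternatives and were still called in 127. Of the 10 genes 4 were called lower over both genotypes, and 4 to 6 when 1 sample was left out; Cdkn1a, Bax and Phlda3 were called in all 22 alternatives and Sesn2 in 21, and Trp53 was called in 7 (adjusted p 0.0397 to 0.809, limma). The calls within a genotype held less well. In WT cells 3 genes were called lower, 1 without a filter on FPKM, 0 with the embryo as a replicate block and 0 to 3 when 1 sample was left out; Cdkn1a, not called there, was called in 3 of 14 alternatives. In CIZ1 null cells 2 were called lower, 1 without a filter, 1 with all 12 samples in a single fit, 0 with quantile normalization, 0 with the replicate block, 0 with the 2 primary CIZ1 null samples without the transgene, and 0 to 2 when 1 sample was left out. The cause was not tested. None of the 10 genes was called in the other 4 comparisons under any alternative. With the block, calls among all units fell from 1902 to 499 in WT cells and from 975 to 10 in CIZ1 null cells, and were 6666 and 6292 over both genotypes. Over all alternatives the share of units called ran from 0.312% to 14.95% in WT cells and from 0.0499% to 14.96% in CIZ1 null cells. Quantile normalization moved the median change of all units over both genotypes from -0.05 to 0.06, and the share of called units that were lower from 57.5% to 44.1% (69.9% to 52.4% in WT, 71.3% to 58.8% in CIZ1 null cells). Summing the units of a gene and leaving out adapted CIZ1 null E13.17 and E14.2 were chosen after seeing the data.

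Signs changed only for genes that were not called, with 1 exception: Perp was called lower in CIZ1 null cells without adapted E13.17 (-1.67, adjusted p = 0.0475). With 1 sample left out, the log2 change ranged from -0.85 to 1.13 for Perp, -0.91 to 0.43 for Mdm2 and -0.24 to 0.64 for Trp53inp1 in WT cells, from -1.67 to 0.89 for Perp and -0.058 to 0.13 for Zmat3 in CIZ1 null cells, and from -0.70 to 0.51 for Perp and -0.27 to 0.32 for Mdm2 over both genotypes. It ranged from -0.19 to 1.18 for Cdkn1a between adapted genotypes, from -0.014 to 1.36 for the difference of its adaptation, and from -0.18 to 0.25 for Trp53 on induction. Perp was at -0.75, -1.48 and -1.11 (WT, CIZ1 null, both) with a pseudocount of 0.1, at -0.022, -0.14 and -0.081 with summed units, at -0.45 (CIZ1 null) and -0.18 (both) with array weights, at -0.36 and -0.16 with all 4 untreated primary CIZ1 null samples, at -0.19 and -0.047 with the 2 samples without the transgene, and at -0.53 (both) without adapted CIZ1 null E13.17 and E14.2. Over both genotypes Mdm2 was at -0.029 with array weights, -0.078 with all 4 untreated samples, -0.044 with the 2 without the transgene and -0.00039 without those adapted lines. In WT cells Mdm2 was at 0.048 with quantile normalization and Trp53inp1 at -0.10 with array weights. In CIZ1 null cells Trp53 was at 0.080 with quantile normalization and Zmat3 at -0.054 with all 4 untreated samples. The other genes named over both genotypes stayed on the same side of the threshold in all alternatives that gave a value, whereas Mdm4 in CIZ1 null cells kept its call in 6 of 16 and Cdk1, Bub1, Cdc25c and Ckap2 in WT cells in 10, 9, 8 and 3 of 14. Depth is known only in relative terms. No paired analysis of the induction was possible because the labels do not say which treated sample came from which population.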
